A study of Mus musculus with 9 samples.

Results

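Dlk1, Meg3, Rian and Mirg are neighbouring genes of the imprinted Dlk1 domain on mouse chromosome 12, and their levels were followed in embryonic cerebral cortex that lacked Sfpq. The members were taken as every array probe set annotated in the platform table to 1 of these 4 genes alone. This gave 75 of the 1256831 probe sets: 18 for Dlk1, 25 for Meg3, 25 for Rian and 7 for Mirg. The genes were chosen by their array signals in Sfpq-/- against control cortex, where all 4 had been seen to be higher, so their values in Sfpq-/- against control cortex are given here as a description, with no test. Total RNA of cerebral cortical tissue from mouse embryos at E13.5 was hybridised to Affymetrix whole-transcript exon arrays, 1 array per sample and 9 in all. The 3 groups of 3 arrays were wild type controls, Sfpq+/- embryos (titled heterologous knock-out) and Sfpq-/- embryos (titled homologous knock-out). The labels give no strain, allele, Cre driver, litter, sex, slide or date for any group, and do not say whether tissue was pooled. No sample is stated to come from a separate litter, and the p-values below therefore speak only of the spread among these 9 samples, which may in part be technical. Sfpq encodes a nuclear RNA-binding protein that acts in transcription, splicing and the assembly of paraspeckles.

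An imprinted gene is read from only the copy inherited from the mother or only that from the father. In the Dlk1 domain a methylated control region between Dlk1 and Meg3 marks the paternal copy. Dlk1, Rtl1 and Dio3 are read from the paternal chromosome, and the noncoding RNAs Meg3, Rian and Mirg from the maternal chromosome, where they are thought to form a long run of transcription. Dlk1 encodes a membrane protein with EGF-like repeats that is related to the Notch ligands and holds back differentiation of precursor cells, best known in fat. Meg3 is a long noncoding RNA of the nucleus, Rian hosts box C/D small nucleolar RNAs and microRNAs, and Mirg hosts microRNAs. The domain is read strongly in developing brain.

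The start regions of Dlk1 and Meg3 and some hosted microRNAs are shown first, because they identify the 2 kinds of product that the values below concern, a protein and precursor RNAs. The 250 bases before a RefSeq start of each gene are given on the plus strand of build GRCm38.p6, at chr12:109452573-109452822 for Dlk1 and chr12:109540746-109540995 for Meg3. Capitals mark matches on either strand to 6 motifs: the TATA box (searched as TATAAA), the CCAAT box (searched by these letters), the GC box (searched as GGGCGG), the hexamer bound by the imprint-maintenance protein ZFP57 when methylated (searched as TGCCGC), the core of the CTCF motif, and the cAMP response element (searched as TGACGTCA), which was added after the sequence was read.
Dlk1: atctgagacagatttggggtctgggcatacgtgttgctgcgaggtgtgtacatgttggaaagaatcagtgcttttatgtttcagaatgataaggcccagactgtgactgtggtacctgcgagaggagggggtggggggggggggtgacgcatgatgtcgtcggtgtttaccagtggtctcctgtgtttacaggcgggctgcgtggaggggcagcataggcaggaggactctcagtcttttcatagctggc
Meg3: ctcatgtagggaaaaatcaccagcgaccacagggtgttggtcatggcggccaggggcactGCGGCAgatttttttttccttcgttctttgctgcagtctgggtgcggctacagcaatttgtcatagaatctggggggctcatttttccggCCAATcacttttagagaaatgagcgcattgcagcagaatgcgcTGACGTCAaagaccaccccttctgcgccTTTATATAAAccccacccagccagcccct
The Meg3 stretch held the TATA box on both strands in overlapping matches, the CCAAT box, the ZFP57 hexamer on the minus strand and the palindromic cAMP response element. Among 32851 stretches of the same length before RefSeq starts of mouse genes, the TATA box was found in 12.4%, the CCAAT box in 33.8%, the ZFP57 hexamer in 8.68% and the cAMP response element in 1.55%. The GC box and the CTCF core, found in 32.7% and 0.0335% of stretches, were in neither, and the Dlk1 stretch held no match to any of the 6. Another RefSeq start of Meg3, with 250 bases at chr12:109545148-109545397 before it, was searched too and held no match, as did the Rian stretch. The Mirg stretch held the CCAAT box alone. The stretch before the RefSeq start of Mirg contained the whole hairpins of Mir668 and Mir485, so microRNA precursors of the cluster also lie ahead of that start.

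RefSeq places 14 microRNA hairpins of its table on the same strand within these noncoding genes, 1 in Meg3, 3 in Rian and 10 in Mirg, with 27 mature forms and 26 different seeds. Mature microRNAs were not measured on these arrays, and the sequences show what the host RNAs carry. The seed, bases 2 to 8, is in capitals.
mmu-miR-770-5p: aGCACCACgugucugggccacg
mmu-miR-341-3p: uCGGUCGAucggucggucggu
mmu-miR-370-3p: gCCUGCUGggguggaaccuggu
mmu-miR-453: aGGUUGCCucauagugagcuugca
mmu-miR-496a-5p: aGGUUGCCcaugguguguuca
mmu-miR-410-5p: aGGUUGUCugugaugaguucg
mmu-miR-409-5p: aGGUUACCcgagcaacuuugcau
mmu-miR-154-5p: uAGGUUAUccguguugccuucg
mmu-miR-377-3p: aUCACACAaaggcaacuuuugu
mmu-miR-369-3p: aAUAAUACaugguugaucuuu
The first sequence lies in Meg3, the next 2 in Rian and the other 7 in Mirg. Only miR-453 and miR-496a-5p, both of Mirg, share a seed among the 27 forms. The seeds of miR-410-5p and miR-409-5p also begin with GGUU and then differ from it.

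The arrays were alike in overall signal, with medians between 5.648 and 5.697 on the log2 scale, and 3 arrays per group limit the precision. Over the 16854 genes tested, differences of 2 group means had a median SE of 0.096. Sfpq checked the labels, first by 12 of its 23 probe sets, picked for a control mean above 10. Their mean was 12.09 ± 0.03 (SD, n = 3) in controls, 11.96 ± 0.11 in Sfpq+/- and 10.13 ± 0.17 in Sfpq-/- cortex. The Sfpq gene level was 10.14 ± 0.23, 10.25 ± 0.24 and 8.98 ± 0.27 in these groups. It fell by less in Sfpq-/- against control (log2 difference -1.15, limma adjusted p = 0.000787). Sfpq signal therefore does not tell Sfpq+/- from control arrays. The deleted exons are not named in the labels, so a probe set outside them checks nothing. Cortical markers were present in all groups: of 9 measured, Neurod6, a neuronal transcription factor, fell in Sfpq-/- (log2 difference -0.41, limma adjusted p = 0.00848) and Eomes, an intermediate progenitor factor, fell by 0.23 (adjusted p = 0.0489), while 7 did not pass. Over all genes tested, 12.1% passed in either direction in this contrast. The mean of the 9 per array was 10.42 on all controls and 10.34 to 10.39 in Sfpq-/- cortex. Without 1 or other of the 6 arrays compared, the Eomes call was lost in 5 of 6 fits. Xist, which coats the inactive X of female cells, had a signal of 11.48 to 11.79 on 3 arrays (control 1, control 2, Sfpq-/- 1) and of 4.90 to 5.87 elsewhere, so the groups were not matched for embryo sex.

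Dlk1 had the largest difference of the 4 genes. The level of a gene is the mean log2 signal of its kept probe sets, those with a mean over all 9 arrays above 5.644, the median of all probe sets. In controls the Dlk1 level was 9.74, 9.56 and 9.25 on arrays 1, 2 and 3. In Sfpq+/- cortex it was 8.84, 9.34 and 9.53. In Sfpq-/- cortex it was 11.24, 11.00 and 11.08. Each Sfpq-/- array stood above each of the other 6, and the control and Sfpq+/- arrays overlapped. For this and the other 3 genes such separation is a description, since they were chosen for being higher in Sfpq-/-. The share of all genes separated in this way is not given here. Group means were 9.52 ± 0.25 in controls, 9.24 ± 0.36 in Sfpq+/- and 11.11 ± 0.13 in Sfpq-/- cortex (SD, n = 3 each), which made Dlk1 3.01-fold higher in Sfpq-/- than in control cortex (log2 difference 1.59, SE 0.17). Against Sfpq+/- the log2 difference was 1.87 (SE 0.17), on the same Sfpq-/- arrays.

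The noncoding RNAs were higher as well, each by less than Dlk1. Meg3 stood at 8.10, 7.88 and 7.79 in controls, at 8.17, 7.90 and 8.10 in Sfpq+/- and at 8.96, 8.81 and 8.87 in Sfpq-/- cortex. Its mean was 7.92 ± 0.16 in controls and 8.88 ± 0.08 in Sfpq-/- cortex (SD, n = 3), 1.94-fold higher (log2 difference 0.95, SE 0.10). All Sfpq-/- arrays lay above all 6 others.

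Rian, the snoRNA host, stood at 10.14, 9.86 and 9.46 in controls, at 9.64, 9.78 and 9.95 in Sfpq+/- and at 11.17, 10.87 and 10.73 in Sfpq-/- cortex. Its mean went from 9.82 ± 0.34 in controls to 10.92 ± 0.22 in Sfpq-/- cortex (SD, n = 3), 2.15-fold higher (log2 difference 1.10, SE 0.17). The groups did not overlap between Sfpq-/- and the others, although controls spread more for Rian than for the other 3 genes. A further 2 probe sets carry an older name of Rian in the platform table, C130089L09Rik, and were not counted as members. Their means went from 8.73 to 9.86 and from 5.87 to 6.72 between control and Sfpq-/- cortex.

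Mirg, the microRNA host, showed the smallest difference. Its level was 7.05, 7.08 and 7.005 in controls, 6.87, 6.86 and 7.06 in Sfpq+/- and 7.59, 7.41 and 7.56 in Sfpq-/- cortex. The mean was 7.05 ± 0.04 in controls and 7.52 ± 0.10 in Sfpq-/- cortex (SD, n = 3), 1.39-fold higher (log2 difference 0.47, SE 0.08), again with every Sfpq-/- array above the others. By size of the difference Dlk1 ranked 9, Rian 42, Meg3 67 and Mirg 449 from the top among the 16854 genes. In that comparison 12.1% of all genes passed limma's test in either direction and 5.98% passed as higher.

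**Figure D1:**
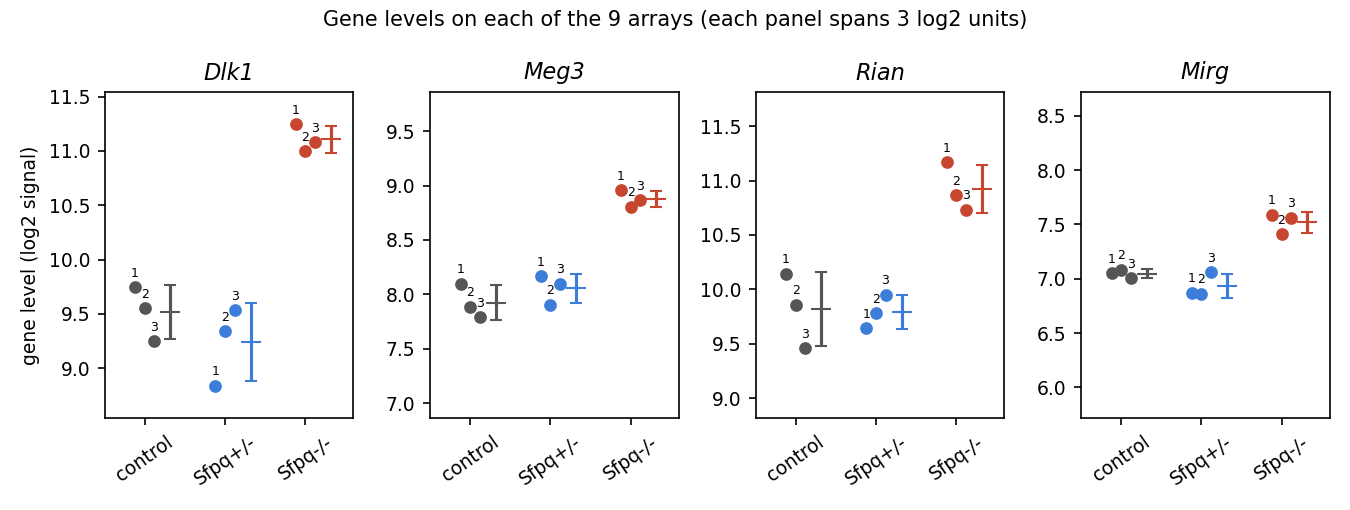
Gene levels (log2 signal, vertical axis) of Dlk1, Meg3, Rian and Mirg on each array, with the replicate number beside each point and the group mean with its SD to the right of the points. In all 4 panels, which span the same number of log2 units, the 3 Sfpq-/- points stand above the control and Sfpq+/- points.

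Control 3 was the lowest control for all 4 genes, lying 0.40 below the mean of controls 1 and 2 for Dlk1, 0.54 for Rian, 0.20 for Meg3 and 0.06 for Mirg (log2 differences -0.40, -0.54, -0.20 and -0.06). Over all genes this difference had a median of -0.04, and 1.19% of genes were as low as Rian, 3.1% as low as Dlk1, 16.3% as low as Meg3 and 44.7% as low as Mirg. Sfpq-/- 1 was the highest Sfpq-/- array for all 4. In the Sfpq+/- group the orders differed: array 1 was the lowest for Dlk1 and Rian and the highest for Meg3. The arrays high in Xist were thus the higher ones within their groups. With the Xist level added to the fit, the Xist term was 0.07 per log2 unit for Rian (SE 0.02, limma unadjusted p = 0.00128, adjusted p = 0.838), 0.05 for Dlk1 (unadjusted p = 0.0543, adjusted p = 0.838), 0.03 for Meg3 (adjusted p = 0.838) and 0.01 for Mirg (adjusted p = 0.862), and none passed after adjustment. Over all genes 910 had an unadjusted p under 0.05 for this term. The Sfpq-/- minus control difference in that fit was 1.72 for Dlk1, 1.01 for Meg3, 1.27 for Rian and 0.51 for Mirg.

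Loss of 1 copy of Sfpq gave no call for any of the genes, in a comparison that was not itself used to choose them. It shares the 3 control arrays with the contrast that was, so the differences are not independent. Controls 1 and 2 were high in Xist and no Sfpq+/- array was. In Sfpq+/- against control cortex Dlk1 differed by -0.28 (SE 0.17, 95% interval -0.66 to 0.10, limma adjusted p = 0.886). Meg3 differed by 0.13 (SE 0.10, interval -0.09 to 0.35, adjusted p = 0.886), Rian by -0.03 (SE 0.17, interval -0.40 to 0.34, adjusted p = 0.979) and Mirg by -0.12 (SE 0.08, interval -0.30 to 0.07, adjusted p = 0.886). Their upper bounds were 0.10, 0.35, 0.34 and 0.07. For none of the 4 does the interval reach the difference seen in Sfpq-/-, for which the genes were chosen. Of all 16854 genes, limma called 0 (0%) here, with 715 at an unadjusted p under 0.05. The Rian value changed sign with the Xist level in the fit (0.28, adjusted p = 0.672), without control 1 (0.13) and without Sfpq+/- 1 (0.045).

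The differences varied between the single probe sets of each gene, whose positions in the RNAs were not analysed here. Of the 75 probe sets 69 were kept: all of Dlk1 and Mirg, and 22 each of Meg3 and Rian. Among the 69, 57 had every Sfpq-/- array above every control array, against 7.65% of all 628415 kept probe sets. Only 248590 of those 628415 belonged to tested genes, and the share among these is not given here. The count of 57 comes from the contrast that chose the genes and describes them only. Control means were under the limit for 2 of the 69: ps4324992 of Dlk1, which was under it in Sfpq+/- too and was kept only through its Sfpq-/- arrays, and ps4610943 of Meg3, with 6.03 in Sfpq+/-. In Sfpq+/- against control limma called 0 of the 69, as it called 0 (0%) of all 628415 kept probe sets (28244 at an unadjusted p under 0.05), and the smallest adjusted p among the 69 was 0.983 (2 of the 69 had an unadjusted p under 0.05). The 6 probe sets that were not kept, 3 of Meg3 and 3 of Rian, were also higher in Sfpq-/- on average, by 0.72 to 3.01 and by 0.47 to 1.60, at mean signals between 2.87 and 5.44.

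For Dlk1, 17 of 18 probe sets had every Sfpq-/- array above every control array, against 7.65% of all kept probe sets. The differences ran from 0.43 to 3.47 with a median of 1.56. The largest was that of ps4324992, which went from 5.04 ± 0.61 in controls, under the limit for dim signals, to 8.51 ± 0.10 in Sfpq-/- cortex (SD, n = 3). It was kept only through its Sfpq-/- arrays, and the Dlk1 count and gene level include it. A stricter filter, a mean above 7.333, leaves it out and gave a Dlk1 gene difference of 1.48. The next, ps5509252, went from 8.68 ± 0.73 to 11.26 ± 0.39 and ps5597074 from 9.22 ± 0.35 to 11.19 ± 0.29. The smallest was that of ps5386604, with 10.54 ± 0.05 in controls and 10.97 ± 0.41 in Sfpq-/- cortex, which was the 1 probe set with overlapping arrays. ps5260324 (0.69) and ps4457488 (0.91) were the next smallest. In Sfpq+/- cortex 15 of 18 Dlk1 probe sets were below controls on average, and 1 was below every control array. Their median was -0.30, against 0.01 over all kept probe sets, and the share of all probe sets so placed is not given here. The Dlk1 gene difference of -0.28 was -0.08 without Sfpq+/- 1, -0.16 without control 1 and -0.05 with Xist in the fit. Probe sets of 1 gene share the RNA of the same arrays and are not replicates.

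For Rian, 19 of 22 kept probe sets had no overlap, where 7.65% of all kept probe sets had Sfpq-/- so placed above control. The differences lay between 0.46 and 1.78 (median 1.06). The largest were those of ps4446438 (1.78), ps5081127 (1.70) and ps4934067 (1.52), with control means of 7.96, 7.77 and 7.58. The smallest were those of ps4751037 (0.46), ps4331795 (0.62) and ps5334580 (0.65), whose control means were 10.35, 10.93 and 10.99. The 5 kept Rian probe sets with control means of 8 or below had a median difference of 1.52 and the 17 brighter ones of 1.05. The same division gave 1.14 for 10 dimmer and 0.94 for 12 brighter Meg3 probe sets, but 1.16 for 3 dimmer and 1.57 for 15 brighter ones of Dlk1. Sfpq-/- 1 was the highest Sfpq-/- array in 22 of 22, and control 3 the lowest control in 19.

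Meg3 and Mirg each held 4 probe sets that differed little. For Meg3, 18 of 22 kept probe sets had all Sfpq-/- arrays above all control arrays, against 7.65% of all kept probe sets. Their differences were 0.57 to 1.95. The 18 were led by ps5168619 (6.73 ± 0.32 in controls and 8.68 ± 0.06 in Sfpq-/- cortex), ps4610943 (1.66, with a control mean of 5.41 under the limit) and ps5055214 (1.355). The other 4 overlapped and differed by 0.03 to 0.37, with no clear gap to the lowest of the 18. Among them ps5391279 had 7.84 ± 0.05 in controls and 8.04 ± 0.19 in Sfpq-/- cortex, ps4411574 8.91 ± 0.31 and 9.12 ± 0.12, and ps4583225 5.87 ± 0.27 and 5.90 ± 0.12 (SD, n = 3). The means of these 4 probe sets by array were 7.81, 7.78 and 7.99 in controls and 8.02, 7.94 and 8.23 in Sfpq-/- cortex.

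For Mirg the gap was wider. Its probe sets ps4703935, ps5101224 and ps4623198 were higher in Sfpq-/- by 1.07, 1.02 and 1.00, close to the medians of Meg3 (1.06) and Rian (1.06). Their mean went from 6.73, 6.36 and 6.13 on the control arrays to 7.52, 7.56 and 7.23 on the Sfpq-/- arrays, with 6.43, 6.46 and 6.48 in Sfpq+/-. The other 4 Mirg probe sets differed by -0.08 to 0.17, and their arrays overlapped. Their mean was 7.29, 7.63 and 7.66 in controls, 7.20, 7.17 and 7.501 in Sfpq+/- and 7.63, 7.30 and 7.81 in Sfpq-/- cortex. The mean over 7 probe sets thus joins 3 that differed by about as much as the other noncoding RNAs and 4 that differed little, with control means of 5.78 to 6.84 and 6.69 to 8.87, so the 4 were not the dimmer ones. The division was made after the values were seen, at a difference of 0.4, and gets no test. Which exons these probe sets read was not analysed here.

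**Figure D2:**
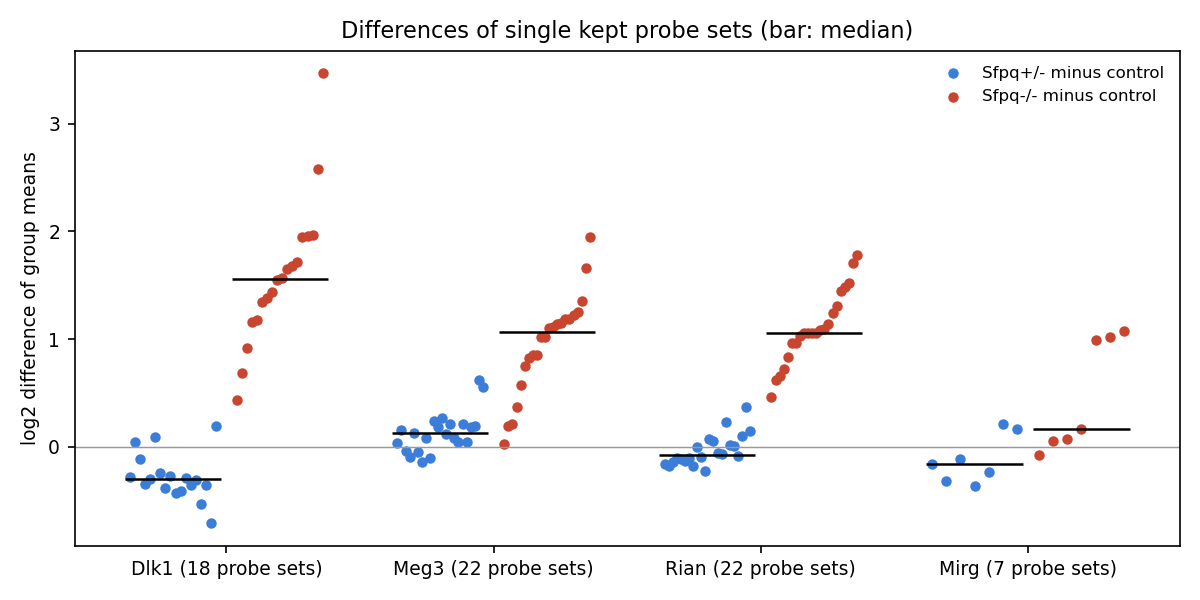
Log2 differences of group means for each kept probe set, Sfpq+/- minus control and Sfpq-/- minus control, by gene, with a bar at the median. The Sfpq-/- points of Dlk1, Meg3 and Rian have medians of 1.56, 1.06 and 1.06, and those of Mirg fall into 3 points near 1 and 4 points between -0.08 and 0.17.

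**Figure D3:**
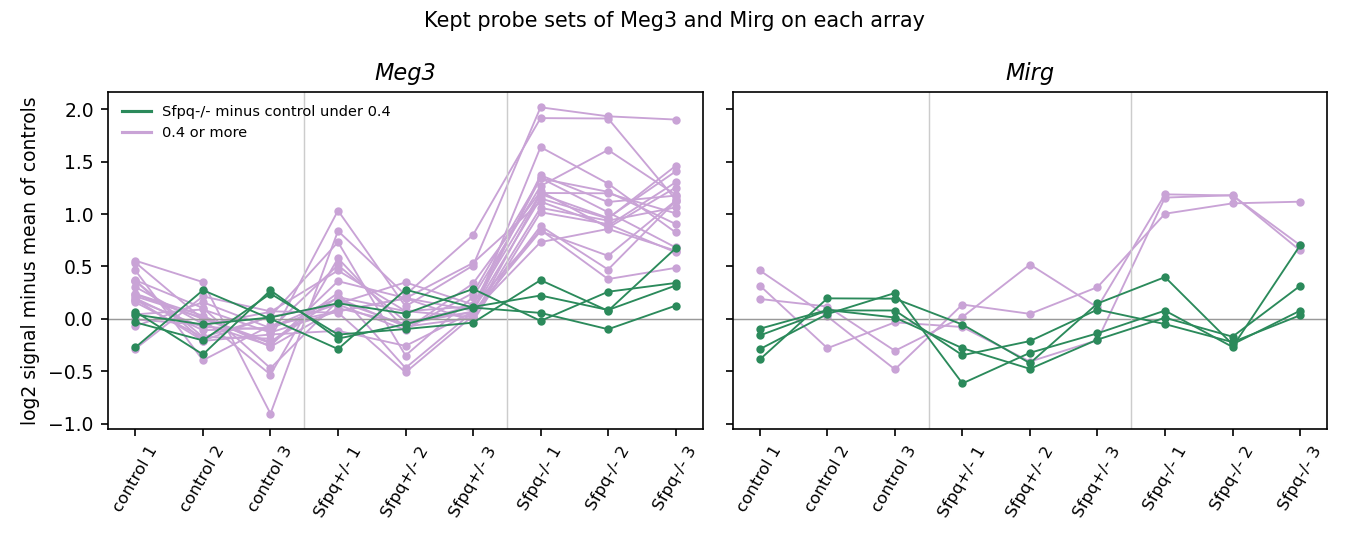
Log2 signal of each kept Meg3 and Mirg probe set on each array, less its own mean over the 3 controls, with probe sets whose Sfpq-/- minus control difference is under 0.4 in green and the rest in purple. The 4 green lines of each gene overlap the control arrays, and on Sfpq-/- 3 ps4589468 of Meg3 (9.50, control mean 8.82) and ps4873837 of Mirg (9.57, control mean 8.87) still lie above their control means.

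The other measured genes of the domain did not pass. RefSeq lists 106 genes from Begain to Dio3, of which 61 are microRNA and 19 snoRNA genes, and 10 had a symbol in the platform table. Rtl1, a paternally read gene derived from a retrotransposon, had 6.58, 6.58 and 6.71 in controls and 6.89, 6.76 and 6.86 in Sfpq-/- cortex. Its Sfpq-/- arrays lay above all controls, but the log2 difference of 0.21 (SE 0.11) did not pass (limma adjusted p = 0.263), and it did pass in 2 of 13 alternative settings. In the RefSeq table its span overlaps those of Meg3 and Rian. The lone probe set of 6430411K18Rik, which RefSeq also calls PEG11as, had means of 6.88 in controls, 7.04 in Sfpq+/- and 7.58 in Sfpq-/- cortex, and was too few to be tested as a gene.

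At the far end of the domain Dio3, the deiodinase that inactivates thyroid hormone, stood at 6.81 ± 0.26 in controls and 6.80 ± 0.19 in Sfpq-/- cortex (SD, n = 3; log2 difference -0.01, 95% interval -0.35 to 0.33, limma adjusted p = 0.984). Its antisense neighbour Dio3os differed by -0.27 (adjusted p = 0.0884), and passed in 2 of 13 alternative settings. The sources used here do not say whether probe sets of overlapping or antisense genes read a single strand. Begain, which encodes a protein of the postsynaptic density and opens the domain, differed by 0.10 (SE 0.08, adjusted p = 0.509). The 2 kept probe sets of 3110009F21Rik differed little, with means of 6.33 and 6.29 for ps4421473 and of 6.67 and 6.49 for ps5021410 in control and Sfpq-/- cortex.

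Among the 10 measured genes on each side of the domain, 1 rose and 1 fell in Sfpq-/- cortex, with a median difference of 0.001 against 0.027 over all genes. In that contrast 12.1% of all genes passed in either direction. Evl, an actin regulator of the Ena/VASP family, fell by 0.37 (SE 0.07, limma adjusted p = 0.00411). The kinase gene Mok rose by 0.27 (SE 0.07, adjusted p = 0.0291), a call that ended in 4 of the 6 fits without 1 array. The other 18 lay between Cyp46a1 (-0.26, adjusted p = 0.0755) and Hsp90aa1 (0.26, adjusted p = 0.106).

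**Figure D4:**
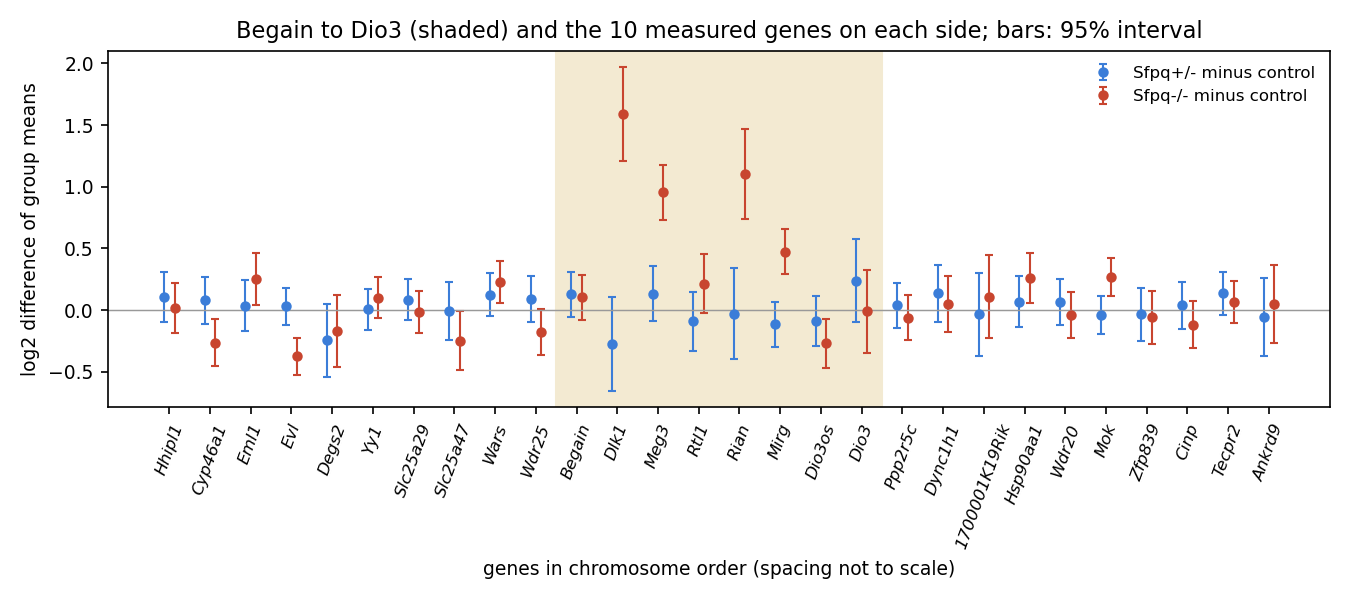
Log2 differences of group means with 95% intervals for the measured genes from Begain to Dio3 (shaded) and 10 genes on each side, in chromosome order with spacing not to scale. In Sfpq-/- minus control the points of Dlk1 (1.59), Rian (1.10), Meg3 (0.95) and Mirg (0.47) stand above those of the genes around them, which lie between -0.37 and 0.27.

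The genes whose profiles over the 9 arrays came closest were found by the root mean square difference after centring each gene on its own mean. For Dlk1, whose own centred profile had a root mean square of 0.851, these were Pdlim3 (0.125 log2 units away), Samd3 (0.152), Crabp2, whose product binds retinoic acid (0.209), the nicotinic receptor subunit gene Chrna4 (0.225) and the amino acid transporter gene Slc7a3 (0.250). The closest to the mean of Meg3, Rian and Mirg were Dtx4, a Deltex-type ubiquitin ligase gene (0.077), the LIM homeobox gene Lhx5 (0.083), the arginase gene Arg2 (0.087), Rgs2 (0.089) and Cxxc4 (0.092), against a size of 0.413 for that mean itself. Between the members the distance was 0.206 for Meg3 and Rian, 0.221 for Meg3 and Mirg, 0.334 for Rian and Mirg and 0.332 for Dlk1 and Rian. It was 0.482 for Dlk1 and Meg3 and 0.596 for Dlk1 and Mirg.

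Genes that act on imprinted methylation or with the products of the domain were read from lists. Beside each list count stands the share over all genes tested, 5.98% called higher and 12.1% called in either direction. Of 20 measured regulators of imprints, 2 rose and 1 fell in Sfpq-/- cortex (median 0.06, against 0.03 over all genes). Aff3, an elongation complex protein that binds the control region of this domain in mouse embryonic stem cells, fell by 0.93 (SE 0.10, limma adjusted p = 0.000114), from 9.40 ± 0.03 to 8.47 ± 0.12 (SD, n = 3). The zinc finger gene Zfp445, which maintains imprints in mouse embryos, rose by 0.35 (adjusted p = 0.0467), and the histone methyltransferase gene Ehmt2 rose by 0.27 (adjusted p = 0.0227). Both calls ended in 4 of the 6 fits without 1 array. The other 17 did not pass, among them Zfp57, the partner zinc finger of imprint maintenance (0.11, adjusted p = 0.475), Trim28 (0.14, adjusted p = 0.335) and Dnmt1 (-0.06, adjusted p = 0.77). Of 11 subunits of PRC2, the complex that methylates histone H3 and binds many noncoding RNAs, the accessory gene Phf19 fell by 0.58 (adjusted p = 0.00143) and Jarid2 rose by 0.41 (adjusted p = 0.0261, lost in 4 of 6 fits without 1 array).

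In microRNA processing 2 of 14 measured genes rose and none fell (median 0.07), where 5.98% of all genes were called higher. Both rising genes encode Lin28 proteins, which block the maturation of let-7: Lin28b rose by 0.87 (SE 0.19, limma adjusted p = 0.0127) and Lin28a by 0.365 (adjusted p = 0.0317). The first call ended in 1 and the second in 4 of the 6 fits without 1 array. The core enzymes Drosha (0.08, adjusted p = 0.68), Dgcr8 (-0.05, adjusted p = 0.824) and Dicer1 (0.07, adjusted p = 0.682) did not pass. Of 9 measured genes for proteins of snoRNA particles, Ruvbl1 rose by 0.26 (adjusted p = 0.0365, lost in 4 of these fits). Among the 9, Nop10, Dkc1, Nhp2 and Gar1 belong to box H/ACA particles, another class than box C/D. The box C/D proteins Fbl and Snu13 were not measured.

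Of 23 Notch ligands, receptors and targets, 2 rose and 2 fell (median 0.04), where 12.1% of all genes passed in either direction. The ligand gene Jag1 rose by 0.91 (SE 0.09, limma adjusted p = 7.42e-05) and the divergent ligand gene Dll3 by 0.70 (adjusted p = 0.002), while the coactivator genes Maml2 (-1.29, adjusted p = 4.86e-06) and Maml3 (-0.42, adjusted p = 0.00352) fell. Dlk2, the closest relative of Dlk1, differed by -0.03 (adjusted p = 0.887). The receptors Notch1 (0.07, adjusted p = 0.73) and Notch2 (-0.03, adjusted p = 0.898) and the target Hes1 (-0.08, adjusted p = 0.646) did not pass.

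Of 34 measured imprinted genes of other domains, 7 rose and 2 fell in Sfpq-/- cortex (median 0.10). Over all genes 5.98% were called higher and 12.1% in either direction. Ppp1r9a, the neurabin gene, fell by 0.92 (SE 0.09, limma adjusted p = 5.12e-05). The potassium channel gene Kcnk9 rose by 0.76 (adjusted p = 0.0136), Ddc, which makes dopamine and serotonin from their precursors, by 0.55 (adjusted p = 0.0181), and the zinc finger gene Peg3 by 0.38 (adjusted p = 0.021). The Peg3 call ended in 3 and the Ddc call in 1 of the 6 fits without 1 array. Grb10 fell (-0.465, adjusted p = 0.0255) and Phlda2 rose (0.448, adjusted p = 0.041), and fits without 1 array are not given for these genes. Igf2 (0.03, adjusted p = 0.912), H19 (-0.02, adjusted p = 0.92) and Cdkn1c (0.03, adjusted p = 0.926) did not pass.

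Markers of other regions and cells moved with the Dlk1 genes in part, and in bulk tissue fewer cells of a type cannot be told apart from less RNA per cell. Over all genes 5.98% were called higher. Of 10 ventral midbrain markers 3 rose: Th, the first enzyme of dopamine synthesis (2.51, SE 0.18, limma adjusted p = 6.98e-06), Ddc and Foxa1 (0.52, adjusted p = 0.0298, lost in 4 of 6 fits without 1 array). The list mean per array was 7.82 to 7.86 in controls, 7.68 to 7.83 in Sfpq+/- and 8.06 to 8.26 in Sfpq-/- cortex. The median difference of the 10 was 0.02, and Th had by far the largest. The other 7 ventral midbrain markers did not pass. Among them were Foxa2 (-0.05, adjusted p = 0.827), Lmx1a (-0.18, adjusted p = 0.185), Lmx1b (0.117, adjusted p = 0.61), En1 (-0.14, adjusted p = 0.493) and Pitx3 (-0.01, adjusted p = 0.968). Of 10 hypothalamic and thalamic markers Tcf7l2 (0.81, adjusted p = 0.000183) and Lhx9 (0.54, adjusted p = 0.0116) rose, and the list mean went from 7.72 to 7.78 in controls to 8.05 to 8.24 in Sfpq-/- cortex. Nkx2-2 (0.40, adjusted p = 0.0525), Gbx2 (0.38, adjusted p = 0.0983), Otp (0.34, adjusted p = 0.144), Sim1 (0.53, adjusted p = 0.238) and Rax (0.115, adjusted p = 0.682) did not pass. All 10 of these differences were positive, with a median of 0.36 against 0.03 over all genes.

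Of 10 microglial markers 7 rose, against 5.98% of all genes. These were led by Cd68 (0.51, limma adjusted p = 0.00492), Tyrobp (0.36, adjusted p = 0.0157), Trem2 (0.34, adjusted p = 0.0324) and P2ry12 (0.28, adjusted p = 0.0365). The list mean was 7.75 to 7.80 in controls and 8.06 to 8.10 in Sfpq-/- cortex, and the calls of Tyrobp, Trem2 and P2ry12 ended in 3, 5 and 5 of the 6 fits without 1 array. Gad1 rose among 10 ganglionic eminence markers (0.98, adjusted p = 0.0102), Rspo3 among 10 of choroid plexus and dorsal midline (0.32, adjusted p = 0.0307) and Rgs5 among 9 of endothelium and pericytes (0.30, adjusted p = 0.028), the last 2 with calls that ended in 5 of 6 such fits. Prrx1 fell among 10 of meninges and mesenchyme (-0.50, adjusted p = 0.00563). The list medians were -0.016 for ganglionic eminence and 0.142 for meninges and mesenchyme, against 0.03 over all genes. Of ganglionic eminence markers that did not pass, Nkx2-1 (-0.725, adjusted p = 0.366) and Isl1 (-0.699, adjusted p = 0.185) were lower and Gad2 (0.234, adjusted p = 0.666) higher. Of meninges markers, Aldh1a2 (0.343, adjusted p = 0.14) and Lum (0.183, adjusted p = 0.504) were higher without passing. None of 4 measured pituitary and 5 measured erythroid markers passed. The list means of these groups overlapped between control and Sfpq-/- arrays, except that of endothelium and pericytes, at 8.86 to 8.98 and 8.98 to 9.25. The part of these cells and regions in the levels of Dlk1, Meg3, Rian and Mirg was not tested.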

How the data were processed

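The deposited files hold 1 log2 signal for each probe set and array. The submitters' processing notes credit Expression Console 1.2.0.20, and the design text credits another Affymetrix exon array tool. Background correction, normalization and genome build were not given in the sources used here, and the log2 scale was taken from the values (0 to 14.98). No further normalization was applied. Gene symbols came from the platform table: 318760 had 1 symbol and 6684 had several, and 3993 symbols were updated through RefSeq synonyms. Probe sets with a mean over 9 arrays above 5.644 were kept (628415), and gene levels were means of at least 3 kept probe sets (16854 genes). All 9 arrays entered 1 linear model with 3 group means in limma 3.58.1 (lmFit, eBayes, R 4.3.3), with Benjamini-Hochberg adjustment over all genes, or all kept probe sets, at 0.05. The fit was tested on simulated data.

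The members and gene lists were chosen with earlier results of these data known. Named were the 4 genes, Sfpq, Xist, the other measured genes from Begain to Dio3, flanking genes that passed, the 5 genes with the closest profile to Dlk1 and to the noncoding RNAs, and, in each list, members that passed (the 4 with the smallest adjusted p where over 6 did). List members and flanking genes named without having passed, and Grb10 and Phlda2, were chosen after their values were seen. In each member the 3 probe sets with the largest and the 3 with the smallest difference were named. The alternatives were the filter, the median as gene level, quantile normalization, the groups fitted, array weights, a replicate block, Xist as a covariate and each array left out. Sequences are from RefSeq tables of GRCm38.p6, in which all 4 genes matched by symbol. The extraction protocol lists Sfpq+/- a second time where Sfpq-/- would stand, so groups were taken from the genotype fields.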

Additional observations from a re-analysis of the deposited data

How the results depend on the processing

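The Sfpq-/- minus control difference kept its sign for all 4 genes in every setting run, between 1.41 and 1.72 for Dlk1, 0.81 and 1.05 for Meg3, 0.92 and 1.27 for Rian and 0.44 and 0.53 for Mirg, where Mirg had no value under the stricter filter because fewer than 3 of its probe sets remained. The Meg3 difference was 0.811 when gene levels were medians of probe sets. In Sfpq+/- against control no member passed in any setting. The Rian difference there (-0.03) was 0.284 with Xist as a covariate and ran from -0.209 to 0.133 without single arrays. Genes called in that comparison numbered 0, but 1 under the stricter filter, and 0 to 1 without single arrays.

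For Sfpq-/- against control, 1008 genes were called higher and 1032 lower. The higher count was 665 with the median of probe sets, 668 with only the 2 groups compared and 2755 with array weights estimated gene by gene, where the lower count was 1854. Those weights were chosen after seeing the data, because the planned estimate over all genes did not converge and was not run. Without single arrays the counts ran from 543 to 1477 higher and from 768 to 1168 lower. Of 195 different other listed genes 29 were higher and 9 lower (19.5% called, against 12.1% of all genes). These were 17 higher with the median of probe sets, 14 with only the 2 groups, 47 higher and 20 lower with array weights, and 9 to 29 higher and 7 to 14 lower without single arrays. The Dio3 difference (-0.01) was 0.06 with the median of probe sets and ran from -0.157 to 0.069 without single arrays, and that of Begain was -0.004 with array weights. The cause of these changes was not tested.

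The correlations between arrays given here are not of the raw gene levels, which lay close together for most genes. Same-numbered arrays correlated between 0.006 and 0.574 across control and Sfpq-/-. There the same-numbered array was the best match for replicates 1 and 3 but not for replicate 2. The same held between Sfpq+/- and control, and only replicate 3 matched best between Sfpq-/- and Sfpq+/-. Whether the numbers mark a shared litter or batch cannot be told from the labels. With a replicate block 1303 genes were higher and 1166 lower in Sfpq-/-, 0 were called in Sfpq+/-, and the differences of Dlk1, Meg3, Rian and Mirg were 1.591, 0.955, 1.104 and 0.473, which a balanced block cannot change.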
